A study of Rattus norvegicus with 6 samples.

Results

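The miR-15/miR-16/miR-195/miR-497 family is a set of microRNAs (miRNAs) from 3 genomic clusters that carry the same or nearly the same seed. Its 10 members were chosen by name among the 753 mature miRNAs in the count table: rno-miR-15b-5p, rno-miR-15b-3p, rno-miR-16-5p and rno-miR-16-3p of the miR-15b/miR-16 cluster, rno-miR-195-5p, rno-miR-195-3p and rno-miR-497-5p of the miR-195/miR-497 cluster, and rno-miR-322-5p, rno-miR-322-3p and rno-miR-503-5p of the miR-322/miR-503 cluster. Small RNA was sequenced from the lumbar spinal cord of 3 rats with bone cancer pain (BCP) and 3 sham rats on day 14, with 1 library per rat. BCP rats received living Walker 256 breast cancer cells in the medullary cavity of the left tibia, and sham rats received heat-killed cells of the same line at the same site, so every rat had surgery and foreign cells in the bone, and no untouched rat was part of the comparison. The sample labels give Wistar as the strain, whereas the methods of the study describe female Sprague Dawley rats. The tissue was the lumbar enlargement of the cord on the injected side with the meninges removed, a mixture of neurons, glia and vessels. In such bulk tissue, fewer cells of a type and less RNA per cell cannot be told apart.

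A miRNA guides an Argonaute protein to messenger RNAs mainly through its seed, a short stretch near its 5′ end, and so miRNAs with a common seed share most of their predicted targets. The miR-15/miR-16 family is known for repressing regulators of the cell cycle and of survival, among them cyclin D1, cyclin E1 and Bcl2, and it accumulates as cells leave the cycle and differentiate. Each hairpin can release a strand from either arm, named 5p and 3p, and in this family the 5p strand carries the common seed, while the 3p strand has a seed and targets of its own. In rat, miR-322 is the counterpart of human miR-424.

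The mature 5p strands are shown to make clear what the 3 clusters share. They are RefSeq sequences of the rat assembly GRCr8, written 5′ to 3′, with bases 2 to 8, the seed, in capitals.
miR-15b-5p: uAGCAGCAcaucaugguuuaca
miR-16-5p: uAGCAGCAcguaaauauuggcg
miR-195-5p: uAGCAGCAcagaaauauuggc
miR-497-5p: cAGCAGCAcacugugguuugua
miR-322-5p: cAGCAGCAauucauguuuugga
miR-503-5p: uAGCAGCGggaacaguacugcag

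The seed AGCAGCA was identical in 5 of the 6 strands. miR-503-5p shared bases 2 to 7 and ended its seed in G. Outside the seed the strands diverged, with 1 exception: miR-16-5p and miR-195-5p, although they lie on different chromosomes, differed at 2 of the 21 bases they have in common, given as G10A and U11G with the miR-16-5p base first and positions counted from 1 at the 5′ end. Every other pair of 5p strands differed at 6 to 12 of the compared bases. The sources used here do not state how reads that fit several miRNAs were assigned, so the division of reads between miR-16-5p and miR-195-5p is less certain than that between the other members. None of the other mature miRNAs of the table with a RefSeq sequence (688 of 753 had one) shared bases 2 to 7 with a 5p member.

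The 3p strands of the family, printed in the same way, each had a different seed.
miR-15b-3p: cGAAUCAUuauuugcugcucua
miR-16-3p: aCCAAUAUuauugugcugcuu
miR-195-3p: cCAAUAUUggcugugcugcucca
miR-322-3p: aAACAUGAagcgcugcaaca

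In GRCr8, miR-15b-5p (chr2:155555197-155555218, plus strand) and miR-16-5p (chr2:155555343-155555364, plus strand) were separated by 124 bases, inside the span of the protein-coding gene Smc4, a subunit of the condensin complex. miR-497-5p (chr10:55450172-55450193, plus strand) and miR-195-5p (chr10:55450509-55450529, plus strand) were 315 bases apart. miR-322-5p (chrX:137726198-137726219, minus strand) and miR-503-5p (chrX:137725899-137725921, minus strand) were 276 bases apart, inside a long noncoding RNA gene. The authors mapped their reads to the older assembly Rnor_6.0, and these positions serve only to show how the hairpins neighbour each other.

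The libraries held 13464349 to 23770677 counted reads. Levels are given as counts scaled to a common library size with TMM factors (TMM-normalized CPM). On this scale 3 counts correspond to 0.127 to 0.221 CPM. No correction was made for the length of the members, 20 to 23 nucleotides. Whether different miRNAs were captured equally well was not tested, so comparisons between miRNAs are of counted reads. The neuronal markers miR-124-3p, miR-9a-5p and miR-128-3p were detected in every library, with a summed level of 125848 to 136379 CPM in BCP and 121046 to 133513 CPM in sham rats. The 3 oligodendrocyte markers summed to 12903 to 15233 CPM and 14182 to 17265 CPM. Nearly all of this was miR-219a-2-3p, while miR-219a-5p was at 4.27 to 6.33 CPM and miR-338-3p at 19.2 to 29.2 CPM over the 6 libraries. Their log2 fold changes were -0.21, 0.14 and 0.069 in that order (edgeR adjusted p = 0.474, 0.812 and 0.940). The 3 erythroid markers in the table, miR-451-5p and both strands of miR-144, were listed at 0 in all 6 libraries. Of 4 leukocyte markers, miR-142-5p and miR-142-3p were also listed at 0. Whether these exact zeros reflect the tissue or the way reads were counted cannot be told from the table, so they are no measure of the blood in the samples. miR-223-3p, a myeloid miRNA, was at 7.93, 6.04 and 5.57 CPM in BCP rats 1 to 3 and 2.31, 0.658 and 1.54 CPM in sham rats 1 to 3 (adjusted p = 0.0190, edgeR quasi-likelihood test). The summed level of the leukocyte list, 975 to 1283 CPM in BCP and 1090 to 1379 CPM in sham rats, overlapped between the groups, but nearly all of it was miR-150-5p, at 969 to 1275 CPM and 1088 to 1379 CPM. The sums of the endothelial, muscle and choroid plexus lists overlapped too, while 1 of the 3 muscle markers, miR-1-3p, had groups apart, at 15.2, 16.2 and 20.7 CPM in BCP and 14.3, 12.1 and 14.4 CPM in sham rats (edgeR adjusted p = 0.404). Libraries also differed by the GC content of the miRNAs they favoured. Across 307 miRNAs with a mean of at least 10 CPM, Spearman's rho between GC content and a library's deviation from the mean was 0.427, -0.464 and -0.629 in BCP rats 1 to 3 and 0.385, 0.605 and -0.390 in sham rats 1 to 3, so that BCP rat 1 stood with sham rats 1 and 2, and sham rat 3 stood with BCP rats 2 and 3. These points share their libraries and the values are a description.

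No member of the family passed both thresholds of the study, which are a log2 fold change beyond 0.8 in either direction and an adjusted p under 0.05, in edgeR's quasi-likelihood test with Benjamini-Hochberg adjustment over all 459 tested miRNAs. Of the 10 members 9 passed the filter on low counts, and miR-16-3p did not. Among all tested miRNAs 3.49% passed both thresholds, so that 0 calls among 9 is near the background, and DESeq2 and limma-voom also called 0 members. At an unadjusted p below 0.05, 3 of the 9 tested members were higher in BCP, where 10.7% of all tested miRNAs were, and 1 was lower, where 2.4% were. The values of BCP and sham rats did not overlap for the same 4 members, and 13.3% of all tested miRNAs had groups apart with BCP higher and 5.23% with BCP lower. The 3 higher members were miR-15b-5p, miR-15b-3p and miR-16-5p, all of the miR-15b/miR-16 cluster. The lower one was miR-322-3p, with an unadjusted edgeR p of 0.0495, just below the limit. The median log2 fold change of the 3 tested members was 0.49 for miR-15b/miR-16, -0.012 for miR-195/miR-497 and -0.10 for miR-322/miR-503, against -0.0034 over all tested miRNAs.

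**Figure D1:**
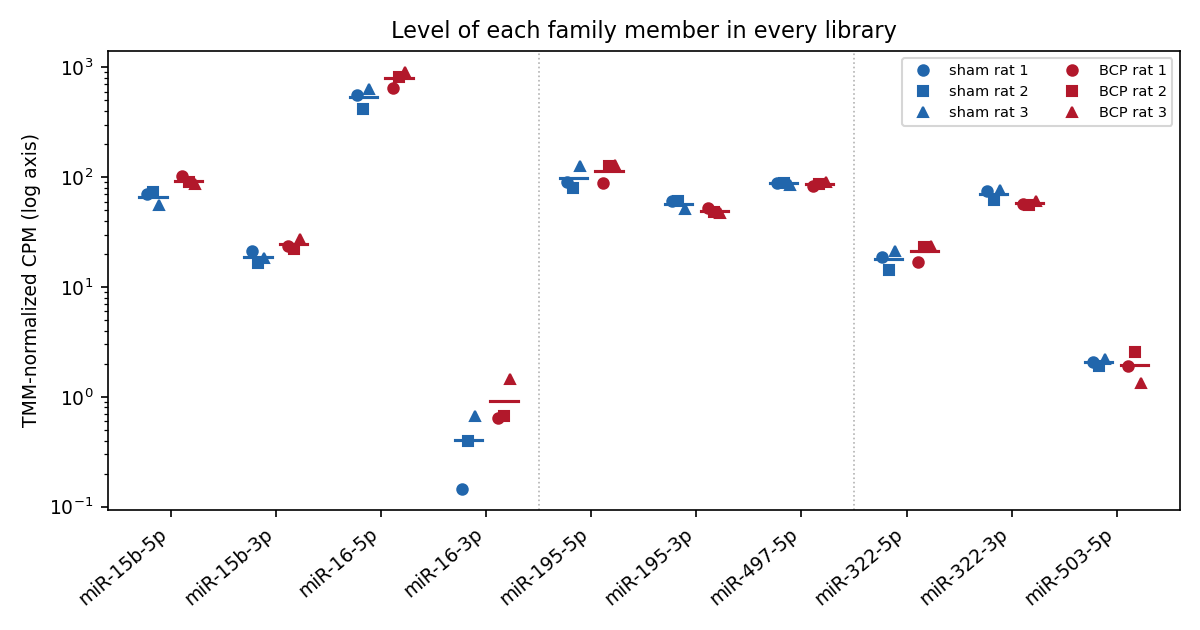
Level of each of the 10 members in every library, in TMM-normalized CPM on a log axis, with BCP rats in red, sham rats in blue, the rat number given by the marker shape, and a horizontal line at each group mean. Dotted lines separate the 3 clusters. miR-16-5p lies above every other member in all 6 libraries, and miR-497-5p hardly varies between them.

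In the miR-15b/miR-16 cluster, miR-16-5p was the most abundant member of the family, ranking 93rd among all miRNAs by mean level. It was at 644, 818 and 915 CPM in BCP rats 1 to 3 and at 564, 414 and 631 CPM in sham rats 1 to 3. The lowest BCP rat lay just above the highest sham rat. The means were 792 ± 137 CPM in BCP and 536 ± 111 CPM in sham rats (SD, n = 3 each), 1.48-fold apart, and the log2 fold change of 0.56 (SE 0.187, 95% interval 0.13 to 1.00) had an adjusted p of 0.197 in edgeR. Scaled by total counts in place of TMM factors, as also with RLE factors, the groups overlapped, and under total counts BCP rat 1 (639 CPM) was below sham rat 3 (667 CPM).

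miR-15b-5p lies beside miR-16-5p inside the span of Smc4, and whether all miR-16-5p reads came from this locus was not tested. miR-15b-5p was at 103, 90.1 and 86.6 CPM in BCP rats and at 69.9, 74.0 and 55.8 CPM in sham rats. Every BCP value lay above every sham value. The means of 93.3 ± 8.66 and 66.5 ± 9.55 CPM (SD, n = 3 each) differed 1.40-fold, and the log2 fold change was 0.49 (SE 0.145, 95% interval 0.15 to 0.82, edgeR adjusted p = 0.137). Its other strand, miR-15b-3p, was less abundant in every library, at 23.8, 22.4 and 27.5 CPM in BCP and 21.4, 16.6 and 18.3 CPM in sham rats. Here too the groups were apart, by a narrow margin between BCP rat 2 and sham rat 1. The log2 fold change of miR-15b-3p was 0.39 (SE 0.147, 95% interval 0.050 to 0.73, edgeR adjusted p = 0.276).

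The highest BCP values did not come from the same rat in the 2 main strands of the cluster. BCP rat 1 was the highest of the group for miR-15b-5p and the lowest for miR-16-5p, and sham rat 3 was the lowest of its group for miR-15b-5p and the highest for miR-16-5p. miR-16-3p, the partner strand of miR-16-5p, was close to the detection limit, with 15, 9 and 23 counts in BCP and 2, 6 and 10 counts in sham rats, or 0.636, 0.663 and 1.45 CPM against 0.144, 0.395 and 0.669 CPM. BCP rats 1 and 2 lay just below sham rat 3. Without the filter on low counts, the log2 fold change of miR-16-3p was 1.13 with an SE of 0.61 (edgeR adjusted p = 0.501). Besides the low counts, the spread between rats was wide, with a coefficient of variation of 50.7% in BCP and 65.2% in sham rats.

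The GC content of the mature sequence moved with these results. The log2 fold changes of the 307 miRNAs above were related to it with a Spearman's rho of -0.489, with a median of 0.16 for the 78 miRNAs of at most 41% GC and of -0.11 for the 143 miRNAs of at least 50% GC. miR-15b-3p (36.4% GC) and miR-15b-5p (40.9%) lie in the range with a positive median, and miR-16-5p (45.5%) lies between. With an offset in each library that is linear in GC content, an alternative chosen after the data had been seen, the log2 fold change of miR-15b-5p became 0.38 (unadjusted p = 0.0692, edgeR adjusted p = 0.392) and that of miR-15b-3p 0.23 (unadjusted p = 0.143, edgeR adjusted p = 0.522). Both then had overlapping groups. For miR-16-5p it was 0.52 (edgeR adjusted p = 0.104), and the groups stayed apart at 656, 797 and 878 CPM in BCP and 574, 435 and 618 CPM in sham rats.

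miR-16 and miR-15b are also known as abundant miRNAs of blood cells. The erythroid markers, listed at 0 in every library, give no measure of red cells here, for the reason stated above. The myeloid miR-223-3p had all its BCP values above its sham values, and its part in the result for this cluster was not tested.

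**Figure D2:**
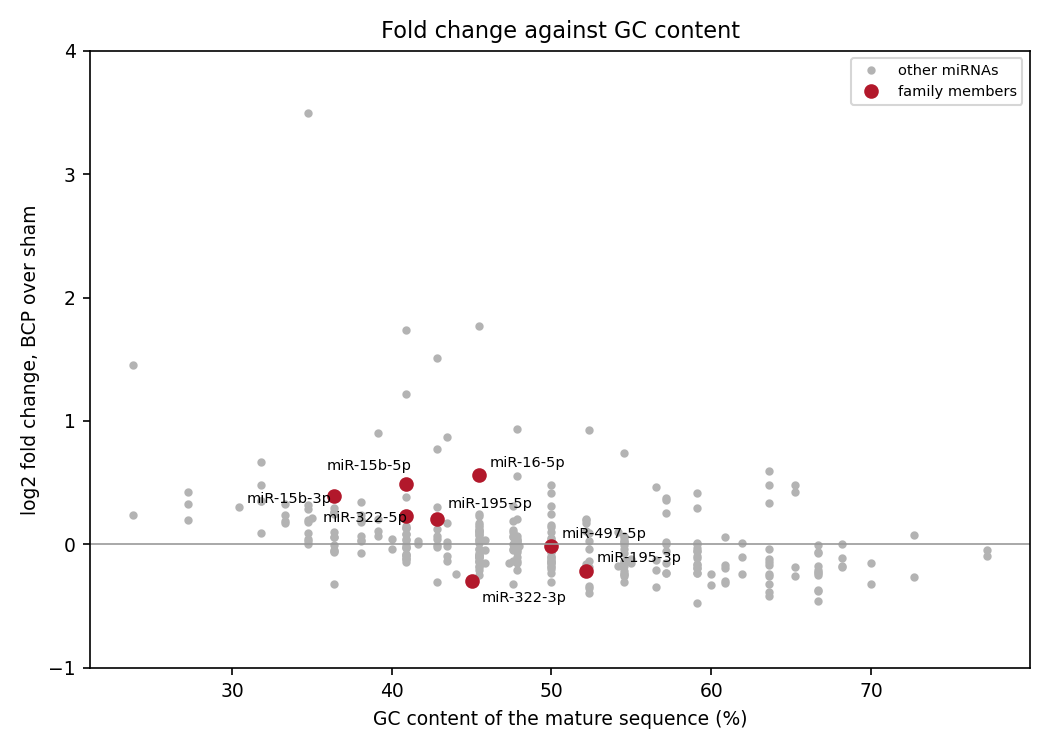
Log2 fold change of BCP over sham against the GC content of the mature sequence in percent, for the 307 miRNAs with a mean of at least 10 CPM and a known sequence, with 8 family members in red and 299 other miRNAs in grey. miR-15b-3p and miR-15b-5p lie at low GC content, where many miRNAs have values above 0, whereas miR-322-3p lies below 0 at 45.0% GC.

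In the miR-195/miR-497 cluster, no member had groups apart on the TMM scale. miR-195-5p, the nearest relative of miR-16-5p by sequence, was at 88.9, 127 and 128 CPM in BCP and at 91.1, 79.1 and 127 CPM in sham rats. The groups overlapped fully, since 1 BCP rat was at the level of the lower sham rats and 1 sham rat at the level of the higher BCP rats. The log2 fold change was 0.21 (SE 0.215, 95% interval -0.29 to 0.71, edgeR adjusted p = 0.729), an interval that holds both no difference and the estimate for miR-16-5p.

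miR-497-5p was the most constant member of the family, at 83.8, 87.2 and 90.3 CPM in BCP and 89.4, 88.5 and 85.6 CPM in sham rats. Its coefficient of variation was 3.70% among BCP and 2.25% among sham rats. The log2 fold change of -0.012 had an SE of 0.106 and a 95% interval of -0.26 to 0.23 (edgeR adjusted p = 0.976), which leaves out the estimates of 0.49 and 0.56 for miR-15b-5p and miR-16-5p, although the difference between members was not tested. Its partner miR-497-3p had 0 counts in all 6 libraries.

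miR-195-3p was at 52.7, 48.1 and 47.4 CPM in BCP and at 60.2, 60.2 and 51.4 CPM in sham rats. BCP rat 1 lay just above sham rat 3, and the other BCP rats lay below all sham rats. The log2 fold change was -0.21 (SE 0.123, 95% interval -0.50 to 0.070, edgeR adjusted p = 0.538). The strands of miR-195 thus had estimates of opposite sign, neither of which passed the test. miR-195-3p has 52.2% GC and miR-195-5p 42.9%, and with the GC offset their log2 fold changes were -0.17 and 0.13. Under total counts, RLE factors or the GC offset, all BCP values of miR-195-3p lay below its sham values.

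**Figure D3:**
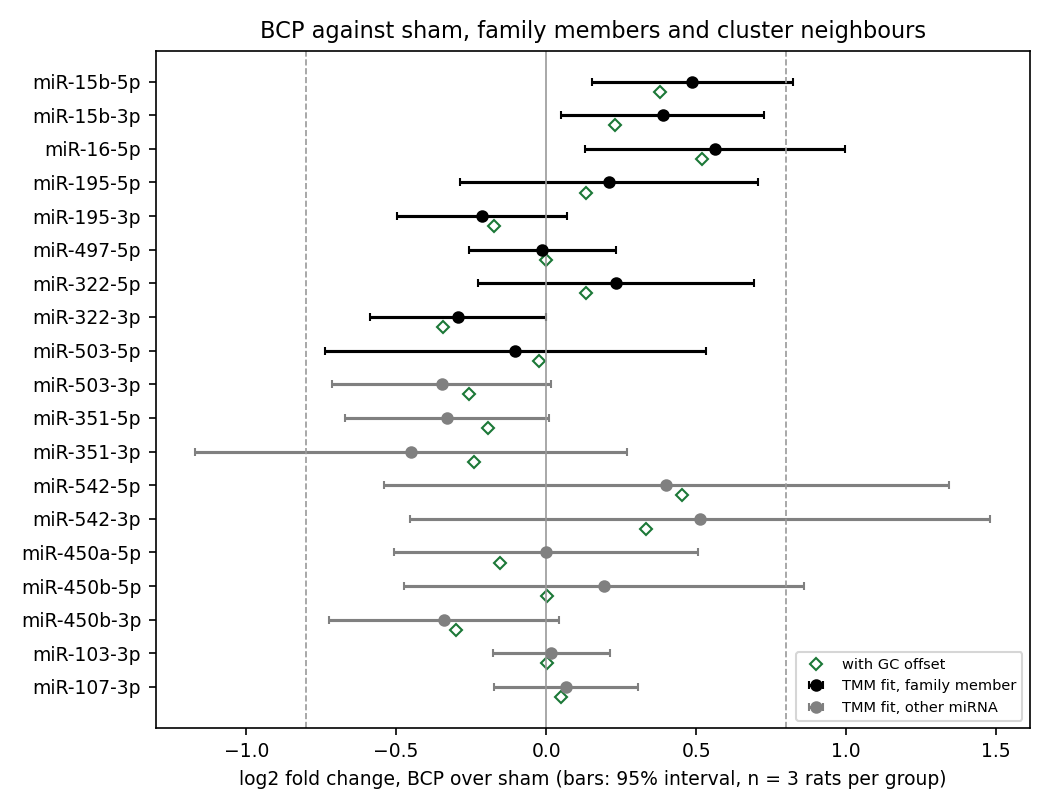
Log2 fold change of BCP over sham in the edgeR fit for the 9 tested members (black), the 8 tested neighbours of the X cluster and miR-103-3p and miR-107-3p (grey), with bars for 95% intervals, open green diamonds for the value under the GC offset and dashed lines at a log2 fold change of 0.8 in either direction. The intervals of miR-15b-5p, miR-15b-3p and miR-16-5p lie above 0, that of miR-322-3p ends just below 0 at -0.00098, and those of the other 5 members include 0.

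In the miR-322/miR-503 cluster the 3p strand of miR-322 exceeded the 5p strand, and they had estimates of opposite sign. miR-322-3p was at 57.1, 55.8 and 60.2 CPM in BCP and at 74.5, 61.5 and 76.3 CPM in sham rats, so that all BCP rats lay below all sham rats, by a small margin to sham rat 2. The means were 57.7 ± 2.28 and 70.8 ± 8.09 CPM (SD, n = 3 each). The log2 fold change was -0.29 (SE 0.127, edgeR adjusted p = 0.379), and with the GC offset it was -0.34 (edgeR adjusted p = 0.0950), with the groups still apart.

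miR-322-5p, the strand with the family seed, was at 16.9, 23.3 and 23.8 CPM in BCP and at 18.7, 14.1 and 21.4 CPM in sham rats. The groups overlapped, with BCP rat 1 below 2 of the sham rats. The log2 fold change was 0.23 (SE 0.199, 95% interval -0.23 to 0.69, edgeR adjusted p = 0.680), and it was 0.13 with the GC offset and 0.075 without sham rat 2. miR-503-5p, a relative known for acting on the same cell cycle genes, was scarce, at 1.91, 2.58 and 1.33 CPM in BCP and 2.09, 1.91 and 2.21 CPM in sham rats, from 21 to 45 counts per library. Its log2 fold change of -0.10 (SE 0.275, 95% interval -0.74 to 0.53, edgeR adjusted p = 0.918) became 0.09 without BCP rat 3, which was the lowest library.

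The miR-322/miR-503 hairpins head a longer cluster on the X chromosome, with miR-351, miR-542, miR-450a and miR-450b within a few kilobases downstream. Of the other mature miRNAs of this cluster 8 passed the filter and none was called, and miR-450a-3p was at 2 counts or fewer in every library. Their median log2 fold change was -0.17, with 3 positive and 5 negative values. miR-503-3p, the dominant strand of its hairpin, was at 28.2, 24.1 and 22 CPM in BCP and 35.7, 32.5 and 26.6 CPM in sham rats, a log2 fold change of -0.35 (edgeR adjusted p = 0.404). miR-351-5p, whose seed is that of the miR-125 family, was at 88.0, 68.5 and 72.6 CPM against 94.5, 108 and 85.3 CPM (log2 fold change -0.33, edgeR adjusted p = 0.404). For both, 1 BCP rat lay above the lowest sham rat. miR-450b-3p was at 12.4, 11.3 and 8.66 CPM against 14.7, 13.9 and 12.4 CPM, the only 1 of the 8 with groups apart (5.23% of all tested miRNAs were apart in this direction), by 12.38 CPM in BCP rat 1 against 12.44 CPM in sham rat 3. Its log2 fold change was -0.34 (edgeR adjusted p = 0.447). miR-450a-5p had the highest mean level of the X cluster, although miR-351-5p was above it in sham rat 2, and was at 94.5, 125 and 140 CPM against 123, 87.5 and 148 CPM, with a log2 fold change of -0.0013 (SE 0.220). miR-450b-5p (0.19), miR-542-5p (0.40) and miR-542-3p (0.51) had positive and miR-351-3p (-0.45) a negative log2 fold change, with edgeR adjusted p from 0.608 to 0.815. With the GC offset the log2 fold change was 0.0020 for miR-450b-5p, 0.45 for miR-542-5p, 0.33 for miR-542-3p, -0.24 for miR-351-3p, -0.19 for miR-351-5p, -0.15 for miR-450a-5p, -0.26 for miR-503-3p and -0.30 for miR-450b-3p. Hairpins of this cluster gave estimates on both sides of 0 in either fit.

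The pool of strands with the family seed was dominated by the miR-15b/miR-16 cluster, to which all miR-16-5p reads were counted. The summed 5p level of miR-15b and miR-16 was 747, 908 and 1001 CPM in BCP and 633, 488 and 687 CPM in sham rats, with means of 886 ± 128 and 603 ± 103 CPM (SD, n = 3 each), 1.47-fold apart and not overlapping. That of miR-195 and miR-497 was 173, 214 and 219 CPM against 180, 168 and 213 CPM, and that of miR-322 and miR-503 was 18.8, 25.9 and 25.1 CPM against 20.8, 16 and 23.6 CPM. Both of these sums overlapped between the groups. All 6 strands together amounted to 939, 1148 and 1245 CPM in BCP and 835, 671 and 923 CPM in sham rats, so that BCP rat 1 was barely above sham rat 3. Under total counts these rats were at 931 and 975 CPM, and the groups overlapped. The log2 ratio of the group means was 0.56 for miR-15b/miR-16, 0.11 for miR-195/miR-497, 0.21 for miR-322/miR-503 and 0.46 for the whole pool, and no test was made on such sums over the members. Leaving out 1 rat gave 0.030 to 0.19 for miR-195/miR-497, lowest without sham rat 2, and 0.059 to 0.32 for miR-322/miR-503, also lowest without sham rat 2.

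Within the pool, the share of each of the 3 clusters did not overlap between the groups, and a share does not depend on how a library is scaled. No test was made on the shares. The miR-15b/miR-16 cluster held 79.6%, 79.1% and 80.4% of the pool in BCP and 75.9%, 72.7% and 74.4% in sham rats. The miR-195/miR-497 cluster held 18.4%, 18.6% and 17.6% in BCP and 21.6%, 25.0% and 23.1% in sham rats. The miR-322/miR-503 cluster held 2.0%, 2.25% and 2.02% against 2.50%, 2.39% and 2.56%. The shares sum to 100%, so that these are not independent differences, and with the GC offset those of miR-15b/miR-16 were 79.7%, 79.1% and 80.4% against 76.0%, 73.1% and 74.3%. The ratio of miR-16-5p to miR-195-5p, which was chosen after its values were seen and was not tested, was 7.25, 6.45 and 7.13 in BCP and 6.19, 5.23 and 4.95 in sham rats. These are the strands that differ at 2 bases in the sequences printed above. This ratio and the shares of miR-15b/miR-16 and miR-195/miR-497 therefore also depend on how the authors divided similar reads.

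**Figure D4:**
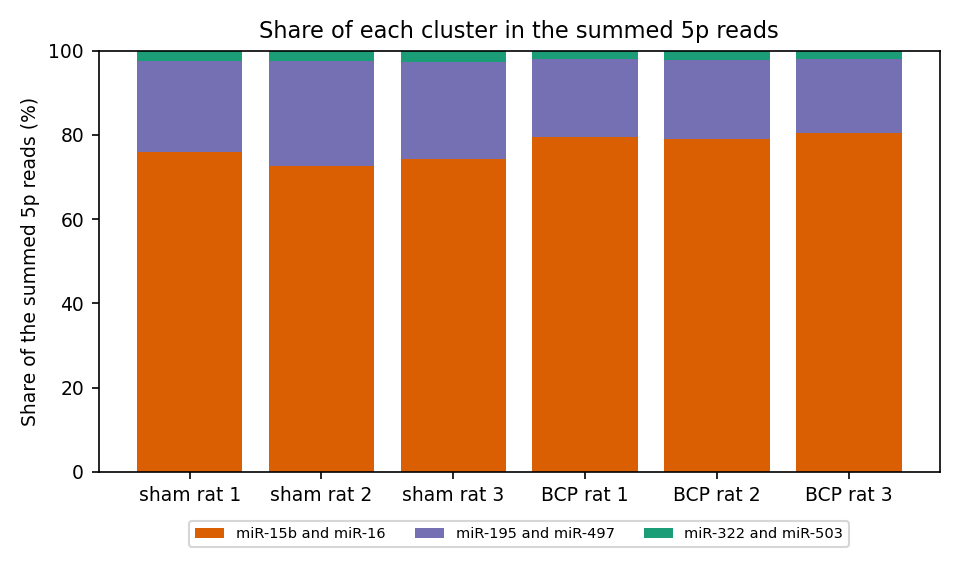
Share of each cluster in the summed 5p level of the family, in percent, as stacked bars with 1 bar per rat: miR-15b and miR-16 in orange, miR-195 and miR-497 in purple, miR-322 and miR-503 in green. The orange share lies between 79.1% and 80.4% in BCP rats and between 72.7% and 75.9% in sham rats, and the purple and green shares are smaller in the BCP rats.

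Ratios between members were compared by the mean log2 ratio in an exact permutation test, two-sided, for which 0.1 is the smallest p that 3 rats against 3 allow, and 7 ratios were compared. The ratio of miR-322-5p to miR-322-3p was 0.295, 0.417 and 0.395 in BCP and 0.251, 0.230 and 0.280 in sham rats. Every BCP rat was above every sham rat, with a difference of 0.53 on the log2 scale (SDs 0.268 and 0.143, n = 3 each) and the smallest exact p of 0.1, which was 0.7 after adjustment over the 7 ratios. With the GC offset the difference was 0.48. The strand ratio of miR-195 was 1.69, 2.64 and 2.71 in BCP and 1.51, 1.31 and 2.48 in sham rats (log2 difference 0.43, exact permutation p = 0.2, adjusted p = 0.7). For miR-15b it was 4.33, 4.02 and 3.15 against 3.26, 4.45 and 3.05 (log2 difference 0.10, exact permutation p = 0.8), and in both of these hairpins the groups overlapped. The 5p strand was the major one for miR-15b, miR-16 and miR-195 and the minor one for miR-322 in all 6 libraries. Of these 4 strand pairs that of miR-16 was the most unequal, with a ratio of 629 to 1234 in BCP and 943 to 3909 in sham rats. The highest ratio rested on 2 counts of the 3p strand in sham rat 1, and the log2 difference was -0.65 (exact permutation p = 0.6). Whether all miR-16-5p reads came from the same hairpin as miR-16-3p was not tested.

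**Figure D5:**
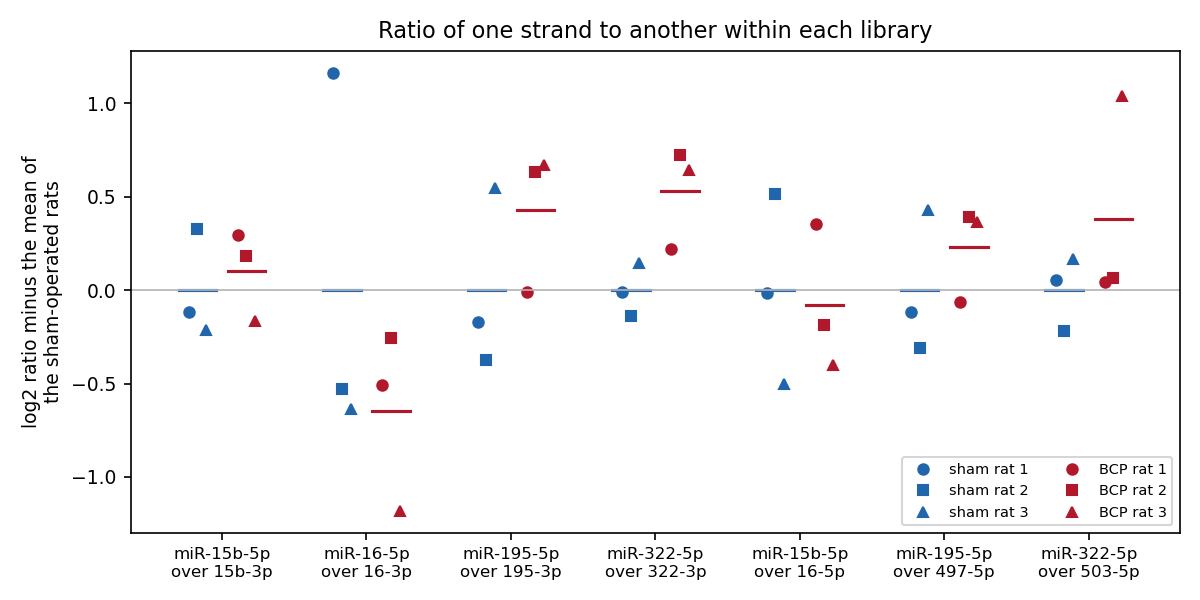
Log2 ratio of 1 strand to another within each library, from counts with 0.5 added, minus the mean of the sham rats for that ratio, for the 7 ratios compared. BCP rats are red and sham rats blue, marker shapes give the rat number, and horizontal lines are group means. The ratio of miR-322-5p to miR-322-3p is the only 1 of the 7 in which all BCP rats lie above all sham rats.

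Within clusters, the ratio of neighbouring 5p strands varied between rats of the same group. miR-15b-5p was 0.160, 0.110 and 0.0947 of miR-16-5p in BCP and 0.124, 0.179 and 0.0884 in sham rats, although the strands lie 124 bases apart (log2 difference -0.077, exact permutation p = 0.8). This difference turned to 0.085 without BCP rat 3 and to 0.18 without sham rat 2. The ratio of miR-195-5p to miR-497-5p was 1.06, 1.45 and 1.42 against 1.02, 0.894 and 1.49 (log2 difference 0.23, exact permutation p = 0.5). That of miR-322-5p to miR-503-5p was 8.84, 9.03 and 17.9 against 8.97, 7.41 and 9.70, and 1 rat, BCP rat 3, was far above the rest (log2 difference 0.38, exact permutation p = 0.5). After adjustment these 3 ratios had a p of 0.8.

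By mean level over the 6 libraries the members ranked from miR-16-5p (664 CPM) through miR-195-5p (107), miR-497-5p (87.5), miR-15b-5p (79.9), miR-322-3p (64.2), miR-195-3p (53.3), miR-15b-3p (21.7), miR-322-5p (19.7) and miR-503-5p (2.0) to miR-16-3p (0.660). miR-16-5p was above the next member in all 6 libraries. The neighbours miR-497-5p and miR-15b-5p exchanged places between libraries, with miR-497-5p higher in 4 of 6, and miR-195-5p was above miR-497-5p in 5 of 6. Part of the order of means depended on the group: miR-15b-5p had a higher mean than miR-497-5p in BCP rats (93.3 against 87.1 CPM). The widest gap was in BCP rat 1 (103 against 83.8 CPM), and in BCP rat 3 miR-497-5p was the higher (90.3 against 86.6 CPM). In sham rats miR-15b-5p (66.5 CPM) had a lower mean than both miR-497-5p (87.8 CPM) and miR-322-3p (70.8 CPM). miR-15b-3p was above miR-322-5p in 4 of 6, so that these neighbours did not differ beyond their spread.

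miR-103-3p and miR-107-3p hold the letters of the family seed from their first base, shifted by 1 base from the family members, and are often discussed with them. Their mature sequences, with bases 2 to 8 in capitals, show the shift.
miR-103-3p: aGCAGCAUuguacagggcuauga
miR-107-3p: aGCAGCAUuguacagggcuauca

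miR-103-3p was at 5153, 4890 and 4616 CPM in BCP and at 4852, 4919 and 4709 CPM in sham rats, well above the level of miR-16-5p. The groups overlapped and the log2 fold change was 0.018 (SE 0.085, 95% interval -0.18 to 0.21, edgeR adjusted p = 0.963). miR-107-3p was at 1073, 962 and 894 CPM against 960, 931 and 909 CPM (log2 fold change 0.065, SE 0.104, edgeR adjusted p = 0.827).

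The miRNAs whose pattern over the 6 libraries was most like that of the most abundant 5p strand of each cluster were found by the root mean square difference of centred log2(CPM + 1) values. For miR-16-5p they were miR-362-5p (0.101), miR-6329 (0.109) and miR-532-5p (0.115), against a median of 0.406 to all tested miRNAs outside the family. For miR-195-5p they were miR-30a-5p (0.0444), miR-421-3p (0.0474) and miR-194-5p (0.0557), against a median of 0.345. miR-322-5p was nearest to miR-384-5p (0.0194), miR-382-3p (0.0515) and miR-379-3p (0.0671), against a median of 0.314. With 6 libraries such likeness is a description of these rats.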

How the data were processed

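The authors trimmed and filtered 50-base single-end reads, mapped clean reads to Rnor_6.0 with Bowtie2 2.2.3 (per the submitters' processing notes) and assigned known miRNAs by miRBase and by length. Members of 20 to 23 nucleotides partly lie outside the length range the methods give, and how this affected their counts was not tested. The deposited values are raw read counts per mature miRNA without normalization. The number of columns without a sample was 0.

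The analysis used edgeR 4.0.16 under R 4.3.3: filterByExpr with a minimum count of 10 (459 of 753 miRNAs), TMM factors and the quasi-likelihood test over the whole table. Standard errors came from the fitted weights and the moderated quasi-dispersion, and the common biological coefficient of variation was 16.9%. DESeq2 1.42.0 and limma 3.58.1 were alternatives. The script was tested on simulated data. The chi-square per degree of freedom between libraries of a group was 50.8 to 535, so none was a copy of another. Floors of 3 counts cover counting error only, since reads carry no molecular identifiers.

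The members, gene lists and tests were chosen with earlier results of these data known. Named miRNAs are the members, their cluster neighbours, miRNAs with the same or a shifted seed, the 3 nearest patterns for the most abundant 5p strand of each cluster, and textbook cell type markers. miR-15a, miR-424 and miR-486 are not analysed here. RefSeq sequences came from GRCr8. The GC offset was estimated from the same 6 libraries, for the 427 tested miRNAs with a sequence.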

Additional observations from a re-analysis of the deposited data

How the results depend on the processing

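The count of members past both thresholds was 0 under no filter, a minimum of 10 counts in each library, RLE, total counts, DESeq2, limma-voom, the replicate block, the GC offset and without each rat in turn. The lowest adjusted p of a member in any of these was 0.0582, for miR-15b-5p in DESeq2. The replicate numbers did not pair the rats (correlations of deviations 0.109, -0.452 and 0.711 for rats 1 to 3, and BCP rat 1 correlated best with sham rat 2, at 0.746), and with the replicate block 0 members and 18 miRNAs were called, against 16 without it. Calls over all miRNAs were 8 to 20 without 1 rat, and 8 without BCP rat 2.

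Members at an unadjusted p below 0.05 numbered 4, where 13.1% of all tested miRNAs had such a p, and 2 of 9 with the GC offset, where 15.2% did. They numbered 3 with a minimum of 10 counts in each library (13.7% of all), limma-voom (12.9%) and the replicate block (15.9%). In these miR-322-3p had an unadjusted p of 0.0562 (edgeR), 0.0529 (limma-voom) and 0.0528 (edgeR with the block). Without 1 rat such members numbered 1 (of 9, without BCP rat 3) to 4 (of 10, without sham rat 3), where 9.46% and 28.8% did. Groups did not overlap for 4 members under TMM (18.5% of all tested miRNAs) and under total counts and RLE (20.3% each), where miR-195-3p took the place of miR-16-5p. They did not overlap for 3 members with the GC offset (22% of all), 6 without BCP rat 1 (39.0% of all), 5 without sham rat 3 (45.8% of all) and 4 without each other rat (21.1% to 23.5% of all).

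Without each rat in turn, log2 fold changes ranged from 0.34 to 0.57 for miR-15b-5p, 0.29 to 0.46 for miR-15b-3p, 0.40 to 0.68 for miR-16-5p, 0.061 to 0.40 for miR-195-5p (lowest without sham rat 2, highest without sham rat 3), 0.075 to 0.36 for miR-322-5p, -0.39 to -0.27 for miR-322-3p and -0.33 to 0.0902 for miR-503-5p, which changed sign without BCP rat 3. Those of miR-195-3p ranged from -0.32 to -0.18 and those of miR-497-5p from -0.062 to -0.0012. The log2 ratios of summed levels ranged from 0.42 to 0.65 for miR-15b/miR-16, 0.030 to 0.19 for miR-195/miR-497 and 0.059 to 0.32 for miR-322/miR-503. The log2 difference of miR-15b-5p to miR-15b-3p ranged from -0.0026 to 0.27 and changed sign without sham rat 3. That of miR-15b-5p to miR-16-5p ranged from -0.33 to 0.18 and changed sign without BCP rat 3 (0.085) or sham rat 2 (0.18). That of miR-16-5p to miR-16-3p ranged from -0.97 to -0.067, the latter without sham rat 1. That of miR-322-5p to miR-322-3p ranged from 0.43 to 0.68, that of miR-195-5p to miR-195-3p from 0.24 to 0.70, that of miR-195-5p to miR-497-5p from 0.077 to 0.45 and that of miR-322-5p to miR-503-5p from 0.054 (without BCP rat 3) to 0.55. The causes were not tested.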
